A study of Mus musculus with 6 samples.

Results

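The 2 mature strands of the miR-21a hairpin, miR-21a-5p and miR-21a-3p (mmu-miR-21a-5p and mmu-miR-21a-3p in the table), were picked by name from 1542 mature microRNAs (miRNAs, short RNAs that silence messenger RNAs by base pairing) counted in whole mouse kidney. The kidneys came from 17-week-old female mice. The 3 control libraries were from C57BL/6 mice. The 3 disease libraries were from MRL/lpr mice, given as MRL/MpJ-Fas<lpr>/J, which carry the lpr mutation of the death receptor gene Fas on the MRL background and develop a lupus-like disease with nephritis. Strain background, the lpr mutation and disease differ together between the groups, and no MRL library without the mutation was analysed here. The labels do not say whether each library is a separate mouse, and p-values reflect how these libraries vary, which may be technical. Totals ran from 5259528 to 6773829 counts, and miRNAs of kidney epithelium were abundant in every library, with a summed level of 80118 to 108109 CPM over 11 members (CPM, counts scaled to a common library size after TMM normalization).

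miR-21 is made from a transcript that overlaps the gene Vmp1 and is induced by STAT3, AP-1 and TGF-β signalling. Its 5p strand is the one loaded into the silencing complex and represses messenger RNAs such as Pdcd4, Spry1 and Ppara, while the 3p strand is largely degraded. In kidney it is known for its rise in tubular injury, in fibrosis and in infiltrating leukocytes.

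The mature strands are shown with the seed, the stretch of bases 2 to 8 that pairs with targets, in capitals, because the seed sets which messenger RNAs each strand can bind and because near copies limit how the counts can be read. Sequences are from RefSeq on GRCm38.p6, 5′ to 3′.
miR-21a-5p: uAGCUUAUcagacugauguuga
miR-21a-3p: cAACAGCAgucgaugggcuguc
miR-21c: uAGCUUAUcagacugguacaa
miR-21b: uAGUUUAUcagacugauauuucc
The 2 strands of miR-21a have different seeds. Of 1679 mature mouse sequences in the RefSeq table, 1 other (miR-21c) had the seed of miR-21a-5p and 0 others had that of miR-21a-3p. miR-21c has the same first 15 bases as miR-21a-5p and first differs from it by A16G, and miR-21b by C4U within the seed (positions counted from 1 at the 5′ end of miR-21a-5p). miR-21b and miR-21c were not analysed here. No source used here says how reads shared by these copies were counted, and the miR-21a-5p count may hold some of them.

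The hairpin (Mir21a) lies at chr11:86584067-86584158 on the minus strand of GRCm38.p6 and is 92 bases long. miR-21a-5p takes positions 86584120 to 86584141 and miR-21a-3p 86584082 to 86584103, with 16 bases between them. In the GENCODE M21 annotation of GRCm38, the whole hairpin falls inside the last exon of 1 Vmp1 transcript (Vmp1-201), in its 3′ untranslated region, on the same strand.

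miR-21a-5p was an abundant kidney miRNA in every library, and its level overlapped between the strains. In C57BL/6 it had 10643 CPM in replicate 1, 26463 CPM in replicate 2 and 9041 CPM in replicate 3, from 52019, 164729 and 58033 counts. In MRL/lpr it had 20881, 16093 and 17877 CPM in replicates 1, 2 and 3, from 147884, 82917 and 107988 counts. C57BL/6 replicate 2 was the highest of the 6 libraries, the other C57BL/6 libraries were the lowest, and the 3 MRL/lpr libraries lay between them. Counting error is small beside these gaps: the 95% exact Poisson interval of the lowest value was 8968 to 9115 CPM. By rank among all entries of its own library, miR-21a-5p was 26th, 11th and 28th in C57BL/6 replicates 1, 2 and 3 and 15th, 21st and 16th in MRL/lpr, and it took between 0.857% and 2.65% of a library's counts.

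miR-21a-3p, the minor strand, was found at low levels in all 6 libraries and passed the filter on low counts, as did miR-21a-5p. It had 4.30, 25.9 and 4.36 CPM in C57BL/6 replicates 1, 2 and 3, from 21, 161 and 28 counts. In MRL/lpr it had 21.3, 11.8 and 19.2 CPM, from 151, 61 and 116 counts. The order of the libraries was that of the major strand except at the bottom, where C57BL/6 replicates 1 and 3 were indistinguishable (95% exact Poisson intervals 2.66 to 6.57 and 2.90 to 6.30 CPM). The interval of the lowest MRL/lpr library, 9.06 to 15.2 CPM, lay above both. MRL/lpr replicate 2 was also below MRL/lpr replicate 1 (18.1 to 25.0 CPM) beyond counting error, and these intervals cover counting error only.

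**Figure D1:**
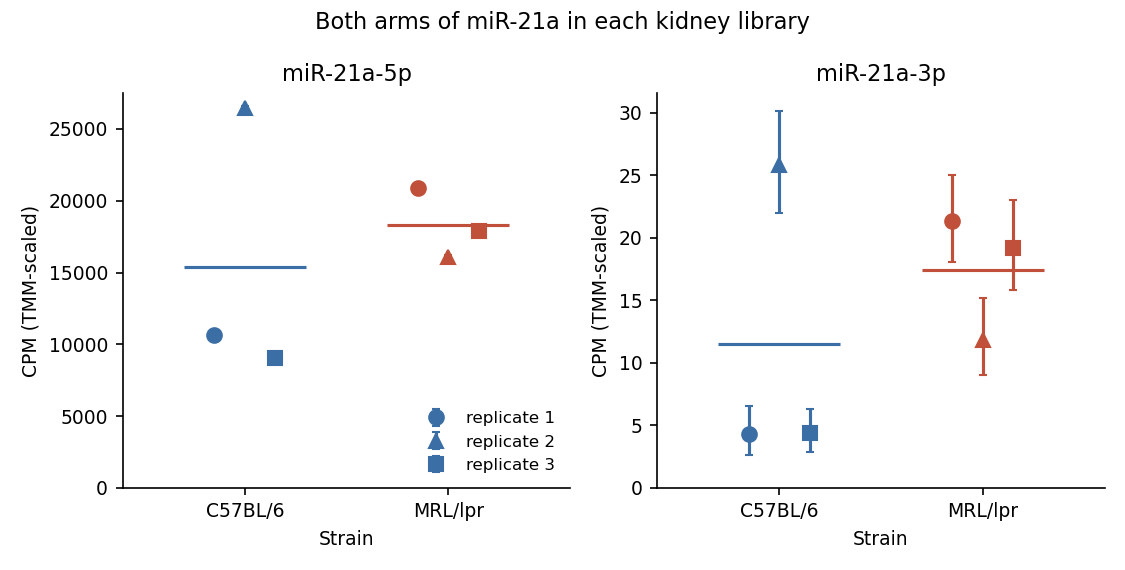
CPM of miR-21a-5p (left) and miR-21a-3p (right) in each kidney library, by strain. Points are libraries, bars on points are 95% exact Poisson intervals of the counts (smaller than the symbol for miR-21a-5p), and lines are group means. For both strands C57BL/6 replicate 2 lies above all 3 MRL/lpr libraries, at 26463 and 25.9 CPM, and C57BL/6 replicates 1 and 3 lie below them. For miR-21a-3p the interval of C57BL/6 replicate 2 overlaps those of MRL/lpr replicates 1 and 3.

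With all 6 libraries, neither strand passed the test between strains. For miR-21a-5p the mean was 15382 ± 9630 CPM over C57BL/6 libraries and 18284 ± 2420 CPM over MRL/lpr libraries (SD, n = 3), a log2 fold change (MRL/lpr over C57BL/6) of 0.25 ± 0.43 SE with edgeR adjusted p = 0.766. The 95% interval of that log2 fold change ran from -0.81 to 1.31, that is from 0.570-fold to 2.48-fold, so falls and rises of a size seen for other miRNAs lie inside it. miR-21a-3p had 11.5 ± 12.4 CPM and 17.5 ± 4.98 CPM (SD, n = 3), a log2 fold change of 0.60 ± 0.73 SE with edgeR adjusted p = 0.684 and an interval from -1.16 to 2.35. Neither strand had an unadjusted edgeR p under 0.05, and neither passed in DESeq2 or limma-voom. An exact two-sided permutation test of log2 CPM gave p = 0.4 for each strand; 3 libraries against 3 allow no p below 0.1. Among all 451 miRNAs tested, 28 passed (6.21%), and the groups did not overlap for 28.8%; for the 2 strands of miR-21a they overlapped.

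The width of these intervals goes with the spread inside C57BL/6. The coefficient of variation of miR-21a-5p was 62.6% in C57BL/6 and 13.2% in MRL/lpr. Of the 150 named miRNAs with a mean of at least 100 CPM, miR-21a-5p included, 10 varied more in C57BL/6 and 77 varied more in MRL/lpr. In C57BL/6 replicate 2 miR-21a-5p was 2.69-fold above the mean of replicates 1 and 3, a ratio that 5 of the 150 exceeded, while their median log2 ratio was -0.070. miR-21a-3p was 5.97-fold above that mean.

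Without C57BL/6 replicate 2, both strands were higher in MRL/lpr. miR-21a-5p then had 9842 ± 1133 CPM in C57BL/6 (SD, n = 2) against 18284 ± 2420 CPM in MRL/lpr (SD, n = 3), which was 1.89-fold higher in MRL/lpr (log2 fold change 0.92 ± 0.16 SE, 95% interval 0.56 to 1.28, edgeR adjusted p = 0.00592). miR-21a-3p had 4.33 ± 0.046 CPM against 17.5 ± 4.98 CPM, which was 4.10-fold higher (log2 fold change 2.03 ± 0.36 SE, interval 1.22 to 2.85, edgeR adjusted p = 0.00610). The groups did not overlap for either strand. Of the 470 miRNAs tested in those 5 libraries, 42 (8.94%) were called higher and 12 (2.55%) lower, 11.5% in all. The groups did not overlap for 44.5%, and MRL/lpr was the higher group for 23.8%. The exact permutation p was 0.1 for each strand, the smallest that 2 against 3 can give. This library had been singled out for high leukocyte and injury miRNAs, miR-21a-5p among them. Leaving it out therefore lowers the C57BL/6 side of miR-21 by construction, whatever the strain difference. The values without it cannot serve as independent evidence of a strain difference.

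In the 5 libraries without C57BL/6 replicate 2, the call held for both strands under 8 other scalings, filters and tests, with log2 fold changes of 0.89 to 1.09 for miR-21a-5p and 1.98 to 2.21 for miR-21a-3p. With each of the other 5 libraries left out in addition, the log2 fold changes were 0.81 to 1.01 and 1.86 to 2.24. Where the additional library was from MRL/lpr, the call held for both strands, with edgeR adjusted p of at most 0.0349. Where it was C57BL/6 replicate 1 or replicate 3, only 1 C57BL/6 library was left. The spread within C57BL/6 could not be estimated there, so those fits give fold changes only. With C57BL/6 replicate 2 kept, neither strand passed under any of 14 alternatives. Leaving out C57BL/6 replicate 1 or replicate 3 in its place brought miR-21a-5p to a log2 fold change of -0.0036 and -0.057.

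**Figure D2:**
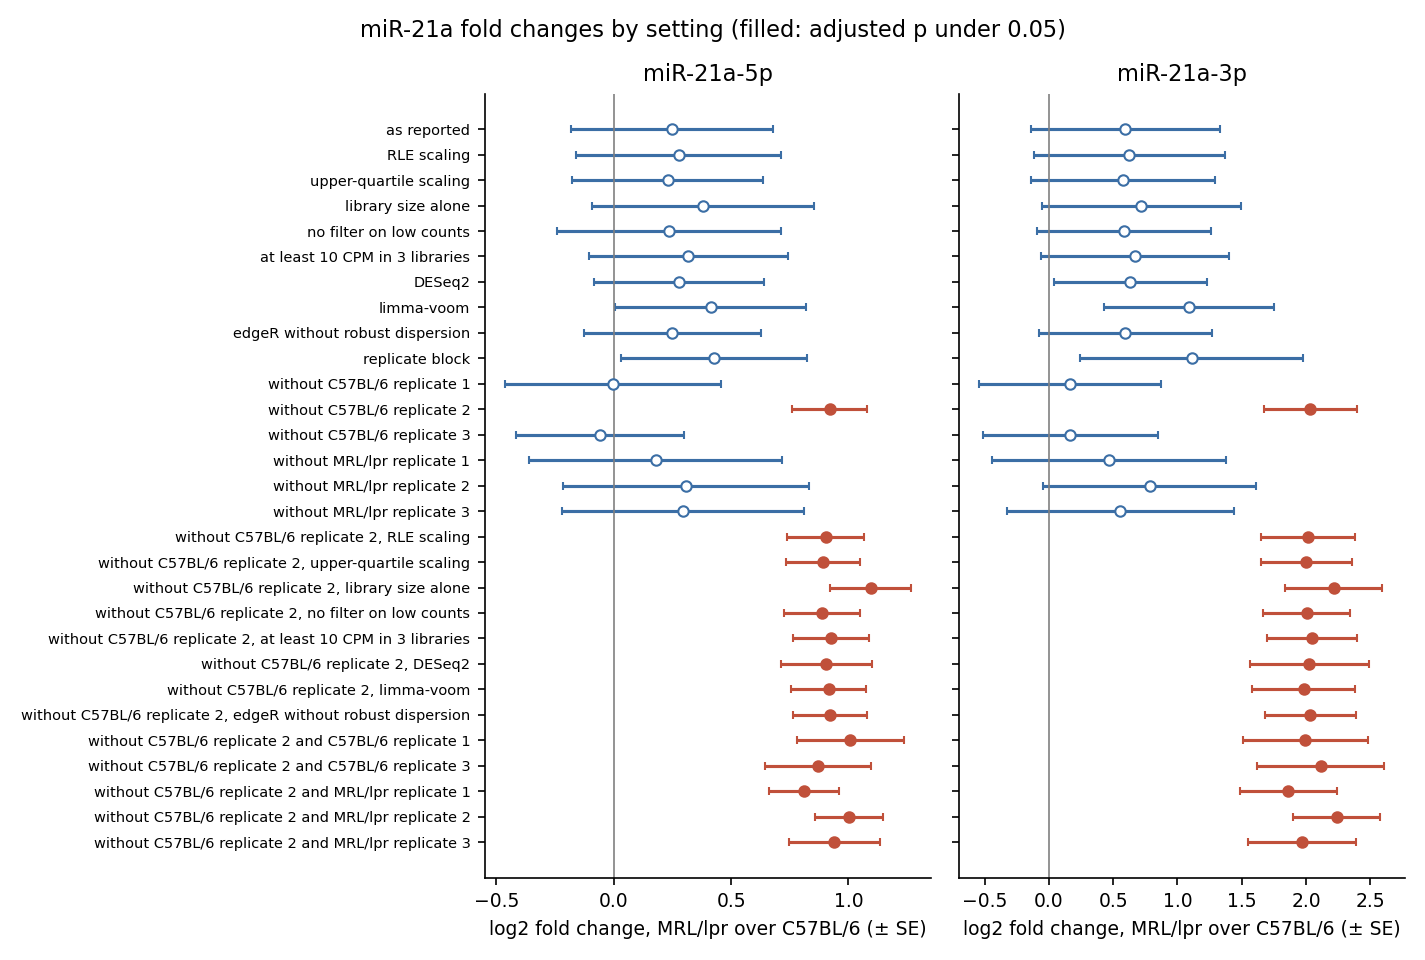
Log2 fold changes of miR-21a-5p (left) and miR-21a-3p (right), MRL/lpr over C57BL/6, under each scaling, filter, test and set of libraries, with bars of ± 1 SE and filled points where the adjusted p was under 0.05. Blue settings keep C57BL/6 replicate 2 and have no filled point, and red settings leave it out and are all filled. Red settings that also leave out another C57BL/6 library keep only 1 from that strain, so only their fold changes can be read.

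The 2 strands come from the same hairpin in equal numbers, so the ratio between them describes how unevenly they are kept. miR-21a-5p outnumbered miR-21a-3p by 2477, 1023 and 2073 to 1 in C57BL/6 replicates 1, 2 and 3 and by 979, 1359 and 931 to 1 in MRL/lpr. As a share of the counts of both strands, miR-21a-3p made up 0.0404%, 0.0976% and 0.0482% in C57BL/6 (95% exact binomial intervals 0.0250% to 0.0617%, 0.0831% to 0.114% and 0.0320% to 0.0697%). In MRL/lpr it made up 0.102%, 0.0735% and 0.107%. C57BL/6 replicate 2 again stood with the MRL/lpr libraries, and the groups overlapped. The ratio of each hairpin was taken in the same direction as for miR-21a, so hairpins weighted to the opposite strand could not count as larger. Of 122 hairpins with both strands measured, 4 had a larger mean ratio. In that direction, miR-21a is therefore among the most one-sided of these 122. This is subject to the unequal ligation of different ends. Hairpins with a strand averaging under 1 CPM were left out, and they could be more one-sided.

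The strand ratio did not pass the test between strains. On the log2 scale, after adding 1 CPM to each strand, it averaged 10.5 ± 0.536 over C57BL/6 libraries and 9.98 ± 0.270 over MRL/lpr libraries (SD, n = 3), a difference of -0.56 ± 0.31 SE (95% interval -1.30 to 0.17, limma p = 0.114, adjusted p = 0.490 over 122 hairpins; exact permutation p = 0.2). A pseudocount of 10 CPM, above the level of miR-21a-3p in 2 of the C57BL/6 libraries, brought the difference to -0.067. None of the 122 passed (0%) after adjustment, 15 had an unadjusted limma p under 0.05 (12.3%), and the groups did not overlap for 17.2%. Without C57BL/6 replicate 2 the difference was -0.86 ± 0.27 SE (interval -1.50 to -0.22, limma p = 0.0155, adjusted p = 0.233; exact permutation p = 0.1), the groups did not overlap, and again none of the hairpins passed, with 14 at an unadjusted p under 0.05 (11.5%) and 29.5% not overlapping. The larger fold change of miR-21a-3p than of miR-21a-5p in those 5 libraries is therefore a difference that did not hold up to adjustment.

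The sums of leukocyte and myeloid marker miRNAs moved with miR-21a across the C57BL/6 libraries. The summed level of 7 leukocyte miRNAs was 6008, 27906 and 5821 CPM in C57BL/6 replicates 1, 2 and 3 and between 9023 and 10760 CPM in MRL/lpr. The sum of 4 myeloid miRNAs, of granulocytes and macrophages, was 249, 1200 and 255 CPM in C57BL/6 and 378 to 440 CPM in MRL/lpr. Like miR-21a-5p, both sums were highest in C57BL/6 replicate 2, lowest in the other C57BL/6 libraries and intermediate in MRL/lpr. miR-146a-5p alone gave 25574 of the 27906 leukocyte CPM in C57BL/6 replicate 2. By member, 4 of 7 leukocyte and 3 of 3 tested myeloid miRNAs were highest there of all 6 libraries, against 108 of all 451. miR-155-5p, of the leukocyte list, had 57.1, 102 and 50.9 CPM in C57BL/6 and 174, 145 and 200 CPM in MRL/lpr. C57BL/6 replicate 2 was singled out for high leukocyte miRNAs, so this order is a description only. The sums of the other lists did not have the order of miR-21a-5p. The 5 erythrocyte miRNAs summed to 2842, 596 and 3502 CPM in C57BL/6 and 3477 to 4312 CPM in MRL/lpr. The kidney epithelium sum was lowest in C57BL/6 replicate 2. The 6 mesenchymal miRNAs summed to 30384 to 43783 CPM in C57BL/6, highest in replicate 2, and 27086 to 34118 CPM in MRL/lpr. miR-143-3p alone gave 35563 of the 43783 CPM. By member, 5 of 6 mesenchymal miRNAs were highest of all 6 libraries in C57BL/6 replicate 2. The 2 endothelial miRNAs summed to 69362 to 82924 CPM in C57BL/6 and 58064 to 73074 CPM in MRL/lpr. No tested erythrocyte, kidney epithelium or endothelial member was highest in C57BL/6 replicate 2. No member of these lists was at 0 in every library. In whole kidney, more cells of a type and more miRNA per cell cannot be told apart, and the part of leukocytes in the miR-21a values was not tested.

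**Figure D3:**
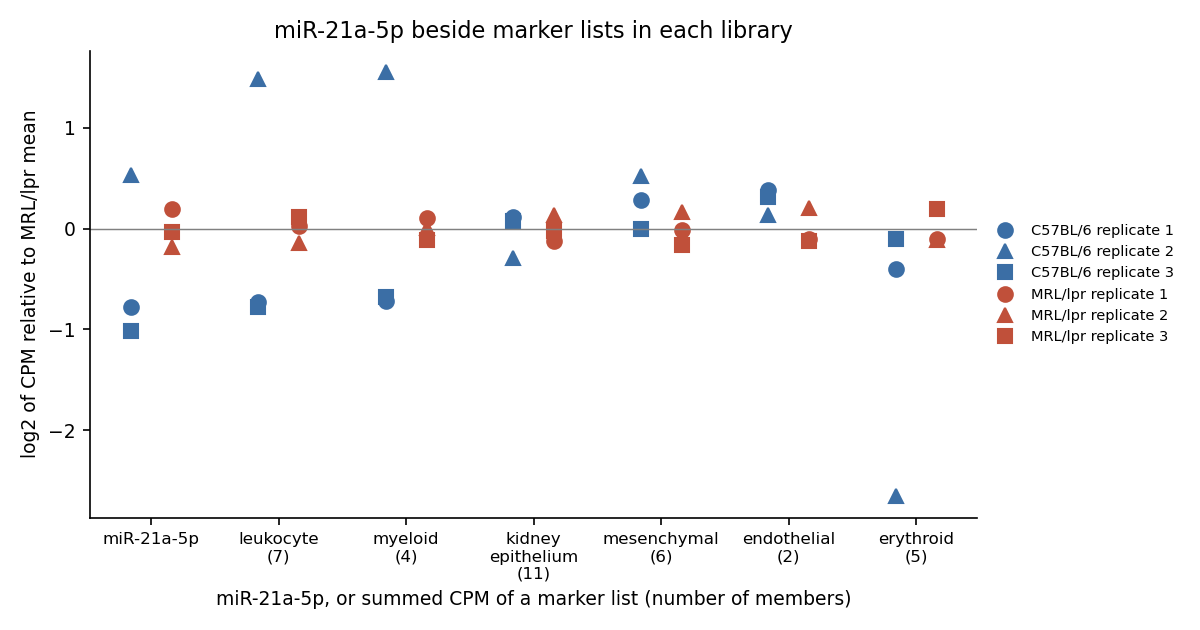
miR-21a-5p and the summed CPM of each marker list in every library, as log2 of the value over the mean of the 3 MRL/lpr libraries; the number of list members is in brackets. C57BL/6 replicate 2 (blue triangles) is above the MRL/lpr libraries for miR-21a-5p (26463 CPM) and for leukocyte (27906 CPM), myeloid (1200 CPM) and mesenchymal (43783 CPM) miRNAs. It is far below them for erythroid miRNAs (596 CPM).

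The miRNAs whose profile was most like that of miR-21a-5p depended on whether C57BL/6 replicate 2 was kept. Likeness was the root mean square distance between profiles of log2(CPM + 1), each centred on its own mean over the libraries compared. It was taken among 149 named miRNAs of at least 100 CPM. Their median distance was 0.622 over 6 libraries and 0.526 without C57BL/6 replicate 2. Over 6 libraries the nearest were miR-150-5p of mature lymphocytes (0.278), miR-214-3p of mesenchymal cells (0.292), miR-342-3p of lymphocytes (0.322), miR-350-3p (0.352) and miR-223-3p of granulocytes (0.356). miR-150-5p, for example, had 612, 1349 and 666 CPM in the C57BL/6 libraries and 871, 963 and 1267 CPM in MRL/lpr. miR-21a-3p lay at 0.446, with the same order of libraries apart from the lowest, C57BL/6 replicates 1 and 3, but wider swings. The ranking changed without C57BL/6 replicate 2: over the other 5 libraries the nearest were miR-146a-5p (0.125), miR-467a-5p (0.142), miR-146b-5p (0.148), miR-32-5p (0.177) and miR-223-3p (0.178), so 1 of the 5 was shared. The miRNAs miR-146a-5p and miR-146b-5p, which NF-κB induces as a brake on inflammatory signalling, parted in C57BL/6 replicate 2. miR-146a-5p had 5011, 25574 and 4765 CPM in the C57BL/6 libraries and 8393, 7314 and 8380 CPM in MRL/lpr. miR-146b-5p had 84.7, 121 and 92.7 CPM in the C57BL/6 libraries and 184, 131 and 137 CPM in MRL/lpr.

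**Figure D4:**
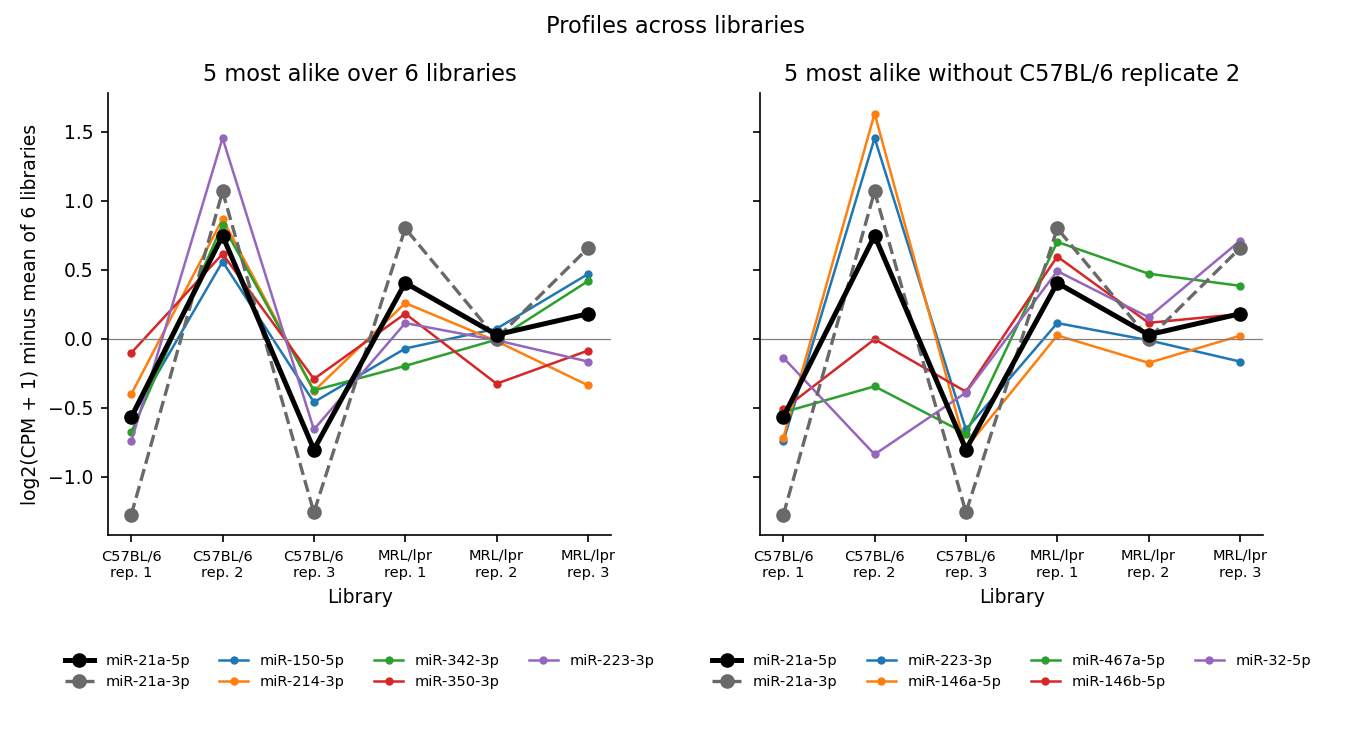
Log2(CPM + 1) of miR-21a-5p (black), miR-21a-3p (dashed) and the 5 miRNAs most like miR-21a-5p, each minus its own mean over the 6 libraries; left, ranked over 6 libraries, right, ranked without C57BL/6 replicate 2. The ranking on the right used profiles centred on the mean of the 5 libraries kept, unlike the values drawn. Lines only join the values of a miRNA. On the right, miR-32-5p and miR-467a-5p follow miR-21a-5p in 5 libraries and not in C57BL/6 replicate 2.

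Most other miRNAs known to rise with kidney injury and fibrosis were also higher in C57BL/6 replicate 2 than in C57BL/6 replicates 1 and 3. edgeR called 1 such miRNA with all 6 libraries. Of 22 such miRNAs listed besides miR-21, 21 were in the table and 17 were tested. With all 6 libraries, the immune activation miRNA miR-155-5p was the 1 called (C57BL/6 70.1 ± 28.1 CPM, MRL/lpr 173 ± 27.5 CPM; SD, n = 3; edgeR adjusted p = 0.0331), beside 4.21% of all miRNAs called higher. DESeq2 called it together with both miR-142a strands (3 of the list, beside 5.23% of all called higher), and limma-voom called it with miR-142a-3p (2, beside 5.32%). miR-155-5p missed the threshold in edgeR without robust dispersion (adjusted p = 0.0528), with the replicate number as a block (adjusted p = 0.0842) and with C57BL/6 replicate 1 or 3 or MRL/lpr replicate 1 or 3 left out (adjusted p 0.0580 to 0.156). The median log2 fold change of the list was -0.067, with 7 of 17 above 0, and that of all miRNAs tested was -0.027, with 219 of 451 above 0. C57BL/6 replicate 2 exceeded C57BL/6 replicates 1 and 3 for 15 of the 17, against 172 of all 451. That library was singled out for its high leukocyte and injury miRNAs, so this comparison follows from the choice and is no result about the list. Leaving the library out lowers the C57BL/6 side of this list by construction. The counts without it are likewise a description and no result about the list. Without it edgeR called 4 of 17 higher (8.94% of all), and 14 were above 0, with a median of 0.51. The 4 were miR-142a-3p, miR-155-5p, miR-142a-5p and miR-146a-5p. limma-voom called these and miR-223-3p (5, beside 8.94% of all), and DESeq2 called these, miR-223-3p and miR-146b-5p (6, beside 8.18%). The 4 called by edgeR are also in the leukocyte list above, and miR-223-3p is in the myeloid list. The injury list and those markers are therefore not separate observations. The injury list's 4 miRNAs of fibroblasts, the 2 strands each of miR-199a and miR-214, did not pass in edgeR in either set of libraries. Their log2 fold changes were -0.20 to -0.0099 with all 6 and 0.085 to 1.13 without C57BL/6 replicate 2. The 1.13 was that of miR-199a-3p, which had 37.7 CPM in C57BL/6 replicate 3 and 2416 to 5817 CPM in the other libraries. Its copy miR-199b-3p had 807 ± 1334 CPM over C57BL/6 libraries and 15.5 ± 13.9 CPM over MRL/lpr libraries (SD, n = 3). How shared reads were split between these entries was not tested.

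The 4 most abundant of the injury list did not pass with all 6 libraries. miR-34a-5p, a target of p53, averaged 17450 ± 1179 CPM over C57BL/6 libraries and 15349 ± 2928 CPM over MRL/lpr libraries (SD, n = 3), close to the level of miR-21a-5p but with little spread in C57BL/6. miR-146a-5p had 11784 ± 11944 and 8029 ± 620 CPM, and miR-199a-5p had 704 ± 204 and 613 ± 126 CPM. miR-199a-3p had 2851 ± 2892 and 2832 ± 658 CPM, but its entry is uncertain because miR-199b-3p is a copy of it.

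None of the 13 miRNAs listed here as restraining fibrosis was called by edgeR, and the list is not exhaustive. All 13 listed were tested: the miR-29 family, which represses collagens, the miR-200 family of epithelial identity and miR-30 miRNAs. At an unadjusted edgeR p under 0.05, 3 were higher in MRL/lpr with all 6 libraries, beside 11.1% of all miRNAs, and 2 without C57BL/6 replicate 2, beside 15.5%. DESeq2 called 1 of them, miR-29b-3p, higher in both sets of libraries (5.23% and 8.18% of all), and limma-voom called 0 (5.32% and 8.94% of all). Their median log2 fold change was 0.17 with all 6 libraries, with 11 above 0, and 0.21 without C57BL/6 replicate 2, with 10 above 0. Of all miRNAs, 219 of 451 and 235 of 470 were above 0. The 2 most abundant were miR-429-3p (C57BL/6 31152 ± 9032 CPM, MRL/lpr 33706 ± 3497 CPM) and miR-200a-3p (7565 ± 1183 and 7492 ± 446 CPM; SD, n = 3).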

How the data were processed

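Small RNA from mouse kidney was ligated to adapters, amplified, size-selected on gels and read on a DNA nanoball sequencer, per the labels' protocols. Ligation favours some ends, which affects comparisons between miRNAs, or between the strands of a hairpin, more than comparisons of 1 miRNA across libraries. Bowtie2, DESeq2 and GRCm38.p6 are named in the submitters' processing notes. The deposited values are the authors' raw whole-number counts per mature miRNA for 1190 miRBase names and 352 predicted entries. Column names were tied to titles through strain group, age and replicate number. The labels give no batch.

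The tests used edgeR 4.0.16 and limma 3.58.1 under R 4.3.3. Entries were kept by filterByExpr (minimum count 10, minimum total 15), scaled by TMM and fitted with a robust quasi-likelihood model for group alone, with Benjamini-Hochberg adjustment over the whole table and a threshold of 0.05. Standard errors come from the coefficient and its F statistic, and 95% intervals from the fit's degrees of freedom. Strand ratios were tested with limma on hairpins whose strands each had a mean of at least 1 CPM. Alternatives were other scalings, filters and tests (DESeq2 1.42.0, limma-voom), a replicate block, leaving out each library and, for the strand ratio, other pseudocounts. Alternatives that combine leaving out C57BL/6 replicate 2 with another change were chosen after seeing the data. The tests were tried on simulated counts. The members and lists were chosen with earlier results of these data known. Named miRNAs were the 2 strands, entries that share a seed with them, the 5 nearest profiles, and from each list described its calls, failing which its 2 most abundant members (injury list: also its 4 most abundant); lists of cell markers are given as sums. Calls by DESeq2 or limma-voom alone, calls without C57BL/6 replicate 2, and the miR-199a and miR-214 strands were named after their values were seen. Of 1190 miRBase names, 996 matched a RefSeq mature sequence, both miR-21a strands included. Figures were drawn with matplotlib 3.10.9.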

Additional observations from a re-analysis of the deposited data

How the results depend on the processing

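miR-21a depended on C57BL/6 replicate 2; with that library kept, no scaling, filter or test run turned either strand into a call. With all 6 libraries the log2 fold change of miR-21a-5p ran from 0.23 to 0.43 over 9 alternatives (lowest adjusted p = 0.633) and that of miR-21a-3p from 0.58 to 1.11 (lowest adjusted p = 0.377). With single libraries left out, or C57BL/6 replicate 2 and 1 more, they ran from -0.057 to 1.01 and from 0.16 to 2.24. Without C57BL/6 replicate 2, miR-21a-5p and miR-21a-3p were at 0.90 and 2.02 with RLE scaling, 0.89 and 2.00 with upper-quartile scaling, 1.09 and 2.21 with library size alone, 0.89 and 2.00 with no filter, 0.92 and 2.04 with at least 10 CPM in 3 libraries, 0.91 and 2.03 with DESeq2, 0.92 and 1.98 with limma-voom and 0.92 and 2.03 without robust dispersion. Library size alone moved the median of all miRNAs tested from -0.027 to 0.12.

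With the replicate block, miR-21a-5p was at 0.43 (adjusted p = 0.639), miR-21a-3p at 1.11 (adjusted p = 0.581) and the strand ratio at -0.56 (adjusted p = 0.541), with 8 miRNAs called higher and 5 lower. Deviations of same-numbered libraries from their group means correlated at -0.37, 0.034 and -0.37 across miRNAs. Those of differently numbered libraries correlated at -0.18 to 0.39. With so few libraries per group, these values cannot exclude a shared batch or pairing. The strand ratio was -0.68 with a pseudocount of 0.1 CPM and between -0.86 and -0.35 with single libraries left out.

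The number of miRNAs called was 34 higher and 30 lower with no filter, 32 and 19 with DESeq2, 14 and 5 without robust dispersion, and 2 to 42 higher and 3 to 15 lower with single libraries left out.

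Among other named miRNAs, the sign of uncalled differences turned in some settings, for miR-146a-5p and miR-223-3p with C57BL/6 replicate 2 left out (from -0.55 to 0.74 and from -0.42 to 0.71). miR-342-3p was at -0.0024 with upper-quartile scaling and -0.0089 with no filter. miR-199a-3p was at 0.033 with RLE scaling, 0.12 with library size alone, 0.069 with at least 10 CPM in 3 libraries, 0.036 with DESeq2, 1.77 with limma-voom and 1.15 with the replicate block. miR-200a-3p was at 0.0072, 0.15, 0.041 and 0.0091 under the first 4 of these. With single libraries left out, ranges were -0.014 to 0.71 for miR-150-5p, -0.43 to 0.40 for miR-214-3p, -0.31 to 0.63 for miR-342-3p, -0.40 to 0.16 for miR-350-3p, -0.82 to 0.71 for miR-223-3p, -0.97 to 0.74 for miR-146a-5p, -0.36 to 0.085 for miR-199a-5p, -0.62 to 1.13 for miR-199a-3p, -0.12 to 0.014 for miR-200a-3p and -0.082 to 0.27 for miR-429-3p. The cause was not tested. At 21 and 28 counts, depth limits miR-21a-3p in C57BL/6 replicates 1 and 3.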
